A study of Mus musculus with 14 samples.

Results

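Annexins are proteins that bind the phospholipids of cell membranes when calcium rises, through a core of repeated annexin domains that all of them share, while the tail in front of the core differs between them and sets their partners. They are known for work at membranes, including the repair of the plasma membrane, the traffic of vesicles and endosomes, the recognition of dying cells and, for annexin A1, the damping of inflammation. In the liver they are made by hepatocytes as well as by bile duct, endothelial and immune cells, with a different mix of members in each. The family described here was the 10 genes *Anxa1*, *Anxa2*, *Anxa3*, *Anxa4*, *Anxa5*, *Anxa6*, *Anxa7*, *Anxa8*, *Anxa11* and *Anxa13*, found by their symbols among the 25212 genes of the deposited count table. It held 11 annexin rows in all, and the remaining row, *Anxa9*, was not part of the list.

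The livers came from 14 male C57BL/6 mice that a high fat diet (HFD) had made obese, and each gave 1 RNA-seq library. All groups stayed on the HFD. The 5 mice with diet-induced obesity (DIO) had no surgery, the 4 GB-IL mice had the common bile duct ligated and the gallbladder joined to the ileum, and the 5 RYGB mice (Roux-en-Y gastric bypass) had the stomach and small bowel rearranged, with livers taken 8 weeks after surgery by the labels. The study asked how diverting bile to the ileum compares with RYGB, and the liver RNA was used to compare gene expression after each operation with the obese livers. The labels do not give the age of the mice at sampling, and livers of sham-operated mice were not analysed here, so the operation itself and the diversion of bile cannot be told apart in these groups. Nothing in the labels says whether livers were taken on the same day or from the same cohort.

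Libraries held 18223135 to 28656631 counts. Levels are given as CPM, which are counts scaled to a common library size by edgeR's TMM method, and sums over marker genes as CPM of the total count. The tissue label was met by the hepatocyte markers, 8 of 8 of which had counts in every group, with sums of 124185 to 143136 CPM in DIO, 86395 to 123416 in GB-IL and 121356 to 152216 in RYGB. Some livers stood apart. GB-IL liver 1 held 1395 CPM of the 6 pancreatic acinar genes (at most 2.44 CPM in the other livers) and 506 CPM of the 8 squamous epithelium genes, for which DIO livers lay between 0.651 and 1.04 CPM with *Krt5*, *Krt6a* and *Dsg3* at 0 in all of them. GB-IL liver 4 held 7.08 CPM of the 9 neutrophil genes, within the DIO range, against 49.2 to 384 CPM in the other GB-IL livers. RYGB liver 5 held 133 CPM of neutrophil genes and 643 CPM of the 8 sinusoidal endothelium genes, above the other RYGB livers (7.92 to 12.9 and 203 to 312 CPM), the endothelium genes lying at 216 to 281 CPM in DIO and 191 to 275 CPM in GB-IL. Results below are therefore given with and without these livers for the members, and some of the list genes, whose values they decide.

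All 10 members passed the filter on low counts, which asked for 0.492 CPM in at least 4 livers. *Anxa8* reached that level in 2 of 5 DIO, 4 of 4 GB-IL and 3 of 5 RYGB livers and *Anxa13* in 4 livers of each group, whereas the other 8 reached it in every liver. The genes lie on 8 chromosomes of the GRCm38 (mm10) build, with *Anxa7*, *Anxa8* and *Anxa11* on chromosome 14 at 20455260 to 20480133, 34085981 to 34100571 and 25842156 to 25886804. *Anxa1* lies on chromosome 19 (20373428 to 20390944, minus strand) and *Anxa3* on chromosome 5 (96793339 to 96845966, plus strand). *Anxa2* lies on chromosome 9 (69453620 to 69491795, plus strand) and *Anxa5* on chromosome 3 (36448923 to 36475894, minus strand). Exons of *Anxa2* share 98 bases with the antisense gene *Gm16144*, and those of *Anxa11* share 113 bases with *Anxa11os*. Each antisense gene had at most 2 counts in any liver, and since the strand setting of the counting is not given in the sources used here, reads from these stretches cannot be assigned to a strand. *Anxa3* also shares 112 exon bases with *Gm42603* on its own strand, and *Anxa4* shares 75 with *Gm44036* on the opposite strand. Neither *Gm42603* nor *Gm44036* is in the count table.

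To show the DNA around the start of the members on which the results below turn, the 250 bases before the transcription start in RefSeq (GRCm38.p6) are given for *Anxa1* and *Anxa8*, which rose in GB-IL, and for *Anxa2*, which was high in RYGB liver 5. Letters are 5′ to 3′ on the strand of the gene, and capitals mark matches to the motifs named below.
Anxa1 (chr19:20390672-20390921, minus strand): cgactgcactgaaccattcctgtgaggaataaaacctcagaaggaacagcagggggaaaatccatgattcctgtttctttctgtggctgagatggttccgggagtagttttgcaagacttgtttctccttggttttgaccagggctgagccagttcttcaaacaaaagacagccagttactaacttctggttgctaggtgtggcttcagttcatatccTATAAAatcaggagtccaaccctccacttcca
Anxa8 (chr14:34085729-34085978, plus strand): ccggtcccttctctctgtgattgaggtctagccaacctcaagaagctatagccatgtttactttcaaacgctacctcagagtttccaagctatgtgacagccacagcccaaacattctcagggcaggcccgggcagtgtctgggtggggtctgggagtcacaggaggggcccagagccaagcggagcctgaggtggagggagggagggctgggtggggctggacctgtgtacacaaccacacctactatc
Anxa2 (chr9:69453433-69453682, plus strand): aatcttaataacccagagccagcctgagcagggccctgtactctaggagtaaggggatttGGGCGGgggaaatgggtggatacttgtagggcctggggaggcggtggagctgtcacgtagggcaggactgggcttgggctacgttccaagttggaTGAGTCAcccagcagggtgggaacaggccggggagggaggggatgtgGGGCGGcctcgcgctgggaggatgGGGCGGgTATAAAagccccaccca

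Both strands of the windows were searched for 6 motifs. The letters TATAAA stood for the TATA box, the letters GGGCGG for the GC box, the letters TGANTCA for the AP-1 site and the letters TTCNNNGAA for the STAT site, besides the CCAAT box and the NF-kB site. The *Anxa1* window held a TATA box whose first base lies 32 bases before the start and none of the other motifs. In the *Anxa2* window there were a TATA box at 17 bases, GC boxes at 190, 48 and 24 bases and an AP-1 site at 95 bases before the start. All these distances are from the RefSeq start. By the gene positions given above, *Anxa2* starts earlier, at 69453620, inside its window. The TATA box and the GC boxes at 48 and 24 bases lie past that earlier start. *Anxa1* by those positions reaches 20390944, so its whole window lies inside the gene. The *Anxa8* window held no match to any of the 6. Among all 32851 windows of this length, 12.4% held the TATA box, 33.8% the CCAAT box, 32.7% the GC box, 6.75% the AP-1 site, 7.02% the STAT site and 7.25% the NF-kB site. Windows were at hand for 7 of the 10 members, 9 windows in all, and none for *Anxa3*, *Anxa6* and *Anxa13*. Of these 9 windows, 2 held a TATA box, 4 a GC box, 1 an AP-1 site and 1 an NF-kB site, with no match to the CCAAT box or the STAT site. GC content was 46.0% for *Anxa1*, 58.0% for *Anxa8* and 62.4% for *Anxa2*, beside a median of 52.4% over all windows. A match is a run of letters and was not tested as a binding site.

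Levels of different members are compared only per kilobase of merged exons. In DIO the order ran from *Anxa6* (49.9 ± 6.72 CPM per kb, SD, n = 5), a member with a duplicated core that is known from late endosomes and cholesterol traffic, and *Anxa5* (40.5 ± 6.44 CPM per kb), the phosphatidylserine-binding protein used as a probe for dying cells, down to *Anxa13* (0.456 ± 0.233 CPM per kb) and *Anxa8* (0.253 ± 0.108 CPM per kb), which are best known from epithelia. Between them lay *Anxa7* at 17.8 ± 1.76, *Anxa4* at 10.7 ± 1.31, *Anxa2* at 5.36 ± 2.73, *Anxa11* at 3.92 ± 0.621, *Anxa3* at 1.21 ± 0.154 and *Anxa1* at 1.06 ± 0.302 CPM per kb (SD, n = 5). The ranges over the 5 DIO livers overlapped between 4 pairs of neighbours in this order, namely *Anxa6* and *Anxa5*, *Anxa2* and *Anxa11*, *Anxa3* and *Anxa1*, and *Anxa13* and *Anxa8*. The other 5 pairs of neighbours did not overlap. Among all genes tested that had a length, *Anxa6* stood at the 93.8th percentile per kb in DIO, *Anxa1* at the 31.1st and *Anxa8* at the 10.7th.

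In GB-IL the order opened with *Anxa5* (58.8 ± 15.5 CPM per kb, SD, n = 4) and *Anxa6* (51.2 ± 13.1 CPM per kb), whose ranges overlapped. *Anxa1* stood at 5.87 ± 4.21 CPM per kb (SD, n = 4), sixth in the order and ahead of *Anxa3* at 3.21 ± 1.09 and *Anxa11* at 2.74 ± 0.927 CPM per kb, with ranges that overlapped among these 3. Its place among all genes with a length was the 66.8th percentile in GB-IL. In RYGB *Anxa5* (55.7 ± 30.3 CPM per kb, SD, n = 5) again stood before *Anxa6* (38.7 ± 3.92 CPM per kb), and *Anxa1* (1.60 ± 0.689 CPM per kb) and *Anxa3* (1.68 ± 0.524 CPM per kb) stood at the 37.8th and 39.0th percentile.

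**Figure D1:**
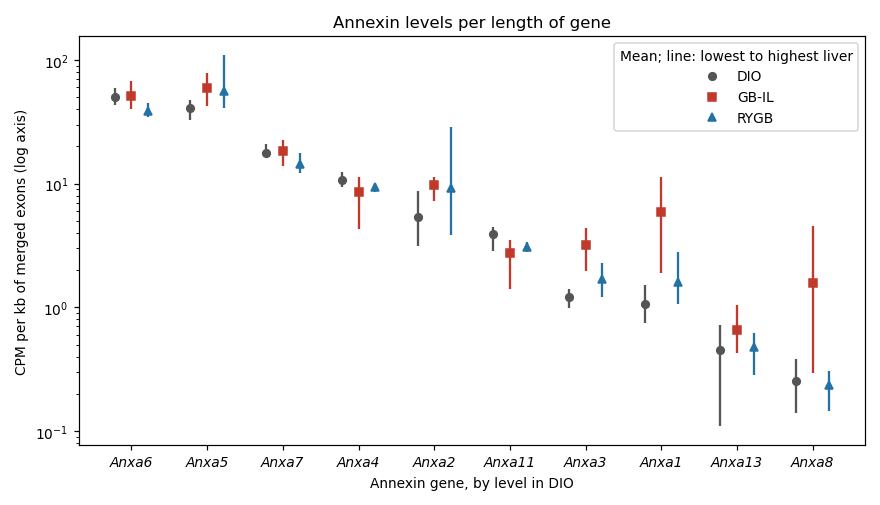
Level of each annexin gene as CPM per kb of merged exons (log axis), in the order of the DIO means, with markers for group means and lines from the lowest to the highest liver. *Anxa6* and *Anxa5* lie highest in all 3 groups, the GB-IL marker of *Anxa1* lies at 5.87 CPM per kb against 1.06 in DIO, and the *Anxa8* line of GB-IL runs from 0.294 to 4.55 CPM per kb.

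In GB-IL compared with DIO, 3 of the 10 members rose past the false discovery rate (FDR) of 0.05 and 0 fell. These were *Anxa1*, the glucocorticoid-induced inhibitor of inflammation, *Anxa3*, a member abundant in neutrophils, and *Anxa8*, a member of squamous epithelia. Over all 14252 genes tested, 3.15% were called higher and 0.112% lower in this comparison. At an unadjusted p below 0.05 there were 4 of the 10 members, beside 23.1% of all genes. The median log2 fold change was 0.52 over the members and 0.04 over all genes tested, with 8 members above 0 and 2 below.

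*Anxa1* had 4.45, 2.95, 2.54, 3.34 and 2.16 CPM in DIO livers 1 to 5 and 32.9, 9.60, 20.4 and 5.50 CPM in GB-IL livers 1 to 4. Each GB-IL liver exceeded the whole DIO range, by a wide margin in livers 1 and 3 and narrowly in liver 4. The log2 fold change was 2.47 (5.52-fold, standard error (SE) 0.445, 95% interval 1.52 to 3.41, adjusted p = 0.0278 in edgeR's quasi-likelihood (QL) test after Benjamini-Hochberg correction over all genes). *Anxa3* had 4.40, 4.63, 5.14, 4.24 and 3.61 CPM in DIO and 14.03, 15.9, 9.71 and 7.19 CPM in GB-IL. Here too the groups did not overlap, and liver 4 was again the lowest of GB-IL. The log2 fold change was 1.41 (2.65-fold, SE 0.265, adjusted p = 0.0278 by the same edgeR test after Benjamini-Hochberg). *Anxa1* and *Anxa3* were the 2 members of 10 that lay higher without overlap, and 0 lay lower without overlap, whereas 2.67% and 1.51% of all genes did so.

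*Anxa8* had 0.262, 0.640, 0.712, 0.283 and 0.481 CPM in DIO and 8.56, 0.678, 2.08 and 0.553 CPM in GB-IL. The rise rested on GB-IL livers 1 and 3, with 163 and 49 counts, while livers 2 and 4, with 12 and 15 counts, lay among the DIO livers (5 to 14 counts). The log2 fold change was 2.61 (6.12-fold, SE 0.679, adjusted p = 0.0495 in edgeR's QL test after Benjamini-Hochberg). Without GB-IL liver 1 it was 1.19 (adjusted p = 0.263 by that edgeR test after Benjamini-Hochberg). *Anxa8* was lost with any single liver left out except GB-IL liver 4.

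Calls in this comparison depended on which livers were used. Leaving out any DIO liver, or GB-IL liver 1 or 2, left 0 of the 10 members past the FDR, with 3 or 4 members at an unadjusted p below 0.05 and 0 of all genes tested called. In these fits 2134 to 2957 of all genes, out of 14190 to 14467 tested, had such a p. In a fit of the GB-IL and DIO livers alone 0 members passed as well, at adjusted p of 0.0844 for *Anxa1* and *Anxa3* and 0.148 for *Anxa8* (edgeR's QL test after Benjamini-Hochberg), with 5 members at an unadjusted p below 0.05. Of all 13792 genes tested in that fit, 2352 had such a p and 0 passed the FDR. *Anxa1* and *Anxa3* passed without GB-IL liver 3 and without each RYGB liver. All genes called were then 540 higher and 36 lower of 14445 without GB-IL liver 3. Without a single RYGB liver they were 288 to 460 higher and 6 to 22 lower. All 3 members passed without GB-IL liver 4, at adjusted p of 0.000625, 0.00124 and 0.00527 (edgeR's QL test after Benjamini-Hochberg). In that fit 2228 of 14492 genes tested were called higher and 1344 lower. Over all alternatives the adjusted p ran from 1.81e-05 to 0.0942 for *Anxa1*, from 0.000153 to 0.0942 for *Anxa3* and from 0.00527 to 0.263 for *Anxa8*, the log2 fold changes staying between 1.92 and 2.75, 1.21 and 1.57, and 1.19 and 2.96.

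**Figure D2:**
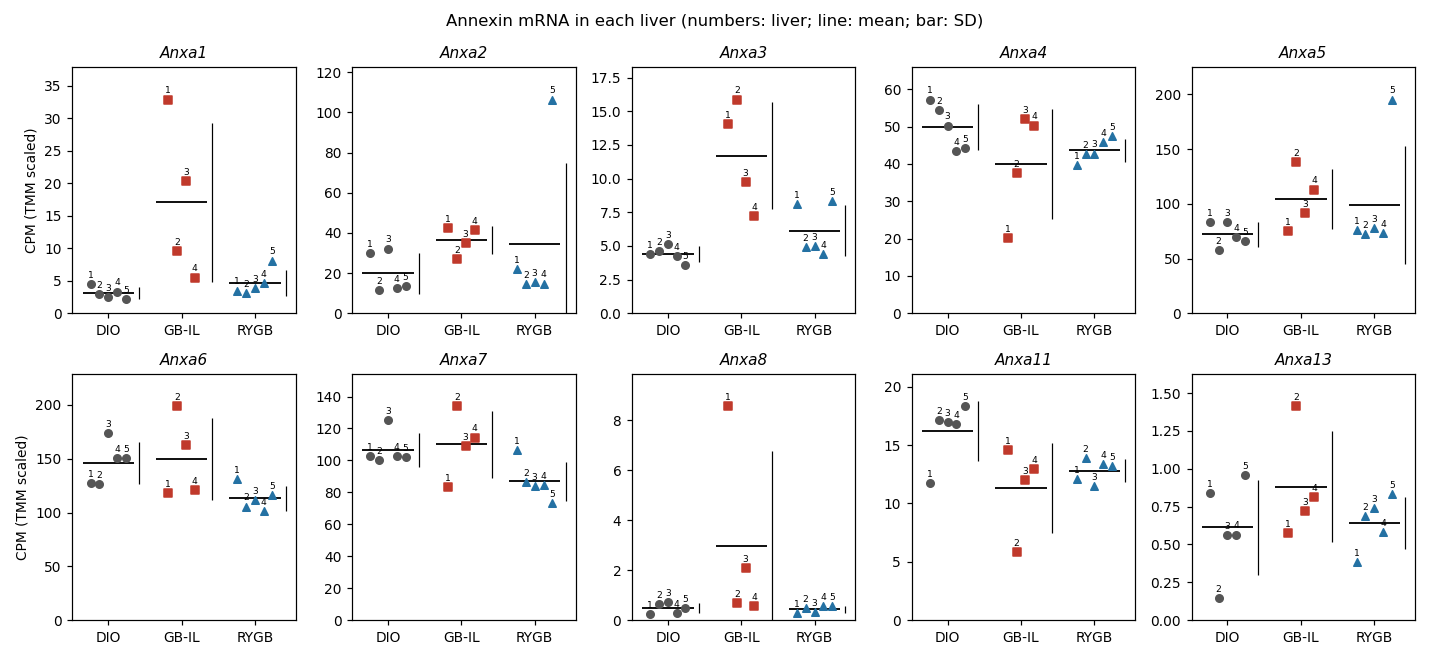
CPM (scaled by TMM) of each annexin gene in each liver, 1 panel per gene with its own axis from 0, points numbered by liver, horizontal lines for group means and vertical bars for the SD. *Anxa1* and *Anxa3* of the 4 GB-IL livers lie above all 5 DIO livers, *Anxa8* stands out in GB-IL livers 1 (8.56 CPM) and 3 (2.08 CPM), and *Anxa2* and *Anxa5* stand out in RYGB liver 5 (106 and 195 CPM).

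Markers of other cell types moved in the same livers. The 10 of 10 monocyte and macrophage genes summed to 125 to 233 CPM in DIO, 262 to 849 in GB-IL and 151 to 318 in RYGB, with GB-IL liver 4 the lowest of its group at 262 CPM, as it was for *Anxa1*, *Anxa3* and *Anxa8*. The 9 of 9 neutrophil genes summed to 5.45 to 10.99 CPM in DIO, where *Ly6g* was at 0 in every liver, and to 112, 49.2, 384 and 7.08 CPM in GB-IL livers 1 to 4. The 8 of 8 squamous epithelium genes summed to 506, 38.4, 1.24 and 1.03 CPM in those livers, so that GB-IL liver 3, with 2.08 CPM of *Anxa8*, held no more of them than 1.24 CPM. Stellate cell and fibroblast genes (10 of 10) summed to 168 to 288 CPM in DIO, 252 to 874 in GB-IL and 247 to 541 in RYGB, and cholangiocyte genes (8 of 8) to 19.4 to 23.6, 22.04 to 57.9 and 26.4 to 38.3 CPM. The largest part of the stellate sum was *Dcn* (112 to 194 CPM in DIO, 104 to 482 in GB-IL). The stellate genes did not move together. In GB-IL *Pdgfrb* lay above its DIO range and *Des* reached 227 CPM. *Col3a1*, *Acta2* and *Tagln* ran from below to above their DIO ranges, and *Lrat* from below to inside. The part of these cells in the results was not tested. In a whole liver, more cells of a type and more RNA per cell cannot be told apart.

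The sums of the remaining lists follow. Kupffer cell genes (7 of 8 in the table) summed to 310 to 537 CPM in DIO, 283 to 1459 in GB-IL and 325 to 812 in RYGB. They did not move together, since *Marco* was at 12.5 to 62.2 CPM in DIO and 113 to 511 in GB-IL. *Clec4f* was at 125 to 196 CPM in DIO and 39.4 to 264 in GB-IL. *Cd5l*, *Timd4*, *Folr2* and *Cd163* likewise ran from below to above their DIO ranges in GB-IL. Mesothelium genes (6 of 6) summed to 2.72 to 12.3, 4.58 to 28.9 and 2.13 to 11.01 CPM. In GB-IL livers 1, 3 and 4 the mesothelium sum (28.9, 19.8 and 12.4 CPM) was above that of every DIO liver. T and NK cell genes (8 of 8) stayed at or below 12.5 CPM and B and plasma cell genes (5 of 6 in the table) at or below 12.2 CPM in every liver. Intestinal epithelium genes (7 of 7) summed to 88.2 to 222 CPM in DIO, 38.8 to 233 in GB-IL and 72.8 to 129 in RYGB. Nearly all of this was *Fabp2* (70.5 to 186, 4.99 to 209 and 54.8 to 101 CPM) and *Lgals4* (17.6 to 35.1, 11.6 to 40.1 and 15.4 to 31.4 CPM). *Vil1*, *Cdx2*, *Sis* and *Cdh17* stayed at or below 0.599 CPM and *Muc2* at or below 3.98 CPM in every liver, with *Cdx2* and *Sis* at 0 in all RYGB livers. In GB-IL livers 1 to 3 the sum of the list (38.8 to 45.5 CPM) was below that of every DIO liver, and in liver 4 it was at 233 CPM. Their part in the annexin values was not tested either.

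The other 7 members did not pass the FDR in GB-IL. *Anxa2*, which with its partner S100a10 binds plasminogen and its activator at the cell surface, had 29.9, 11.7, 32.2, 12.5 and 13.6 CPM in DIO and 42.3, 27.0, 34.9 and 41.5 CPM in GB-IL. The DIO livers lay at 2 levels, and 3 of the 4 GB-IL livers lay above all of them. The log2 fold change was 0.87 (SE 0.562, 95% interval -0.33 to 2.07, adjusted p = 0.346 in edgeR's QL test after Benjamini-Hochberg). The spread in this fit is shared by all groups and so also holds RYGB liver 5. Without RYGB liver 5 the value was 0.86 (SE 0.311, adjusted p = 0.128 by that edgeR test after Benjamini-Hochberg). With the GB-IL and DIO livers alone it was 0.86 (SE 0.341, adjusted p = 0.246 by that edgeR test after Benjamini-Hochberg). *Anxa5* had 83.6, 57.6, 83.7, 69.6 and 65.7 CPM in DIO and 74.8, 138, 91.6 and 113 CPM in GB-IL, where liver 1 lay inside the DIO range and the other 3 above it. Its log2 fold change was 0.54 (SE 0.297, adjusted p = 0.280 by the same edgeR test after Benjamini-Hochberg). With the GB-IL and DIO livers alone it was 0.53 (SE 0.222, adjusted p = 0.265 by that edgeR test after Benjamini-Hochberg).

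Mean levels in GB-IL were below those of DIO for *Anxa11* and *Anxa4*. *Anxa11*, a partner of calcyclin (S100a6) that tethers RNA granules to lysosomes, had 11.7, 17.2, 16.9, 16.8 and 18.3 CPM in DIO and 14.6, 5.82, 12.002 and 12.9 CPM in GB-IL. Apart from DIO liver 1, the DIO livers lay above all GB-IL livers, and GB-IL liver 2 was by far the lowest. This came to a log2 fold change of -0.51 (SE 0.225, adjusted p = 0.191 in edgeR's QL test after Benjamini-Hochberg), and this was the fourth member with an unadjusted p below 0.05. *Anxa4*, a member of polarised epithelia, had 57.3, 54.4, 50.3, 43.4 and 44.3 CPM in DIO and 20.1, 37.5, 52.1 and 50.3 CPM in GB-IL, so livers 3 and 4 stayed in the DIO range and livers 1 and 2 lay below it. Its log2 fold change was -0.32 (SE 0.222, adjusted p = 0.376 by that edgeR test after Benjamini-Hochberg).

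*Anxa6* and *Anxa7*, the latter a partner of sorcin and of Pdcd6, were close to DIO in GB-IL. *Anxa6* had 146 ± 19.7 CPM in DIO (SD, n = 5) and 150 ± 38.3 CPM in GB-IL (SD, n = 4), with GB-IL livers from 118 to 199 CPM on either side of the DIO livers. The fitted log2 difference was 0.04 (95% interval -0.36 to 0.43). *Anxa7* had 107 ± 10.6 CPM in DIO and 110 ± 20.9 CPM in GB-IL, with a log2 fold change of 0.05 (95% interval -0.31 to 0.40). *Anxa13*, known from the epithelia of gut and kidney, had 0.148 to 0.961 CPM in DIO (3 to 20 counts) and 0.578 to 1.41 CPM in GB-IL (11 to 25 counts). Its log2 fold change was 0.51 (95% interval -0.41 to 1.43).

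**Figure D3:**
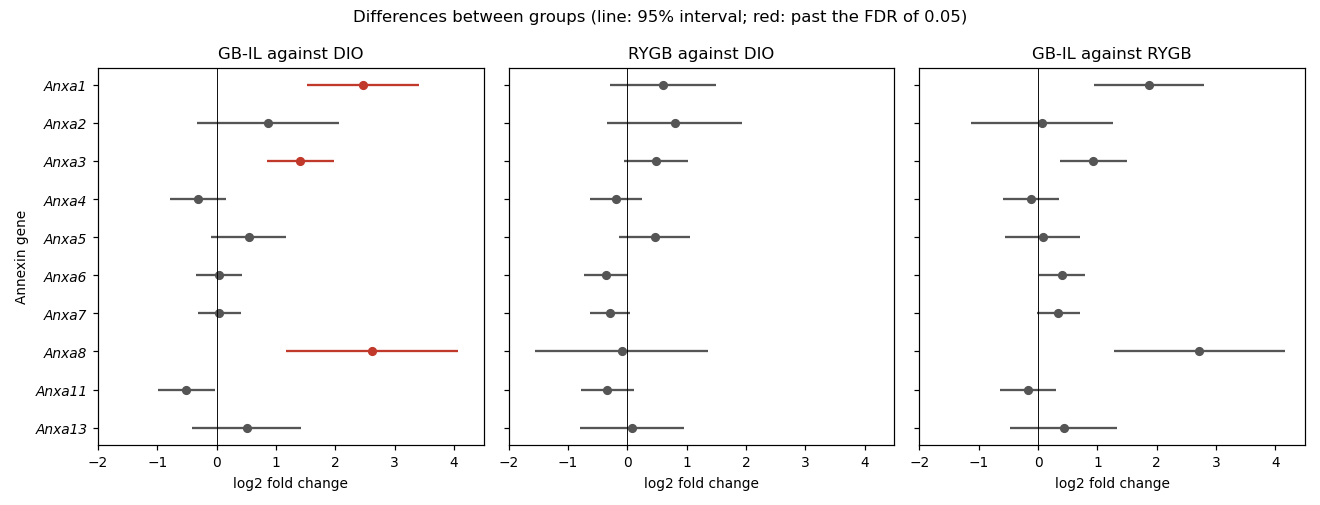
Log2 fold change of each annexin gene in the 3 comparisons (points) with its 95% interval (lines) from edgeR's quasi-likelihood fit, in red where the FDR of 0.05 was passed. *Anxa1*, *Anxa3* and *Anxa8* are red in GB-IL against DIO at 2.47, 1.41 and 2.61, and no point is red in the comparisons with RYGB.

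In RYGB compared with DIO, 0 of the 10 members passed the FDR and 0 had an unadjusted p below 0.05 by edgeR's quasi-likelihood test. Over all genes tested the shares were 0.0% at the FDR, 8.71% at an unadjusted p below 0.05 and 3.53% without overlap of the groups, and 0 members were without overlap. DESeq2 and edgeR's exact test called 0 members, and voom with sample quality weights called 1, *Anxa6*, lower at an adjusted p of 0.0206. Over all genes, voom called 867 of 14252 higher and 823 lower. DESeq2 called 60 of 15783 higher and 34 lower, and the exact test 26 of 14252 higher and 18 lower. The median log2 fold change was -0.01 over the members, 5 above 0 and 5 below, and 0.01 over all genes. The comparisons of GB-IL and of RYGB share the same 5 DIO livers, so their values are given side by side only.

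*Anxa1* had 3.50, 3.11, 3.94, 4.63 and 8.10 CPM in RYGB livers 1 to 5, with livers 4 and 5 above the DIO range. Its log2 fold change was 0.60 (SE 0.418, adjusted p = 0.716 in edgeR's QL test after Benjamini-Hochberg). *Anxa3* had 8.09, 4.88, 4.96, 4.39 and 8.31 CPM, livers 1 and 5 lying above every DIO liver and the rest within. On the log2 scale the difference was 0.48 (95% interval -0.06 to 1.01, adjusted p = 0.612 by the same edgeR test after Benjamini-Hochberg). *Anxa8* had 0.273, 0.493, 0.317, 0.579 and 0.554 CPM (5 to 16 counts), all within the DIO range. Its log2 fold change was -0.10 with a 95% interval of -1.55 to 1.36.

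*Anxa2* and *Anxa5* were set apart in RYGB by a single liver. *Anxa2* had 21.9, 14.4, 15.7, 14.8 and 106 CPM and *Anxa5* 75.8, 72.4, 77.9, 73.1 and 195 CPM, so that liver 5 held the highest level of either gene among all 14 livers while livers 1 to 4 lay within the DIO range. The log2 fold change of *Anxa2* was 0.80 (SE 0.535, adjusted p = 0.706 in edgeR's QL test after Benjamini-Hochberg) and -0.25 without RYGB liver 5. For *Anxa5* it was 0.46 (SE 0.281, adjusted p = 0.672 by that edgeR test after Benjamini-Hochberg) and 0.06 without that liver. *Anxa1* and *Anxa3* were also highest of RYGB in liver 5, whereas *Anxa7* was lowest there at 73.1 CPM. Neutrophil genes at 133 CPM, sinusoidal endothelium genes at 643 CPM and stellate cell genes at 541 CPM stood high in the same liver, and their part in these values was not tested. The endothelium genes did not all move. The highest RYGB values of *Stab2*, *Lyve1*, *Pecam1*, *Kdr*, *Cdh5* and *Oit3* lay well above their DIO ranges. *Clec4g* was at 35.9 to 54.9 CPM in RYGB and 45.6 to 72.3 in DIO, and *Fcgr2b* at 21.3 to 39.2 and 27.4 to 37.7.

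*Anxa6* had 128, 127, 174, 151 and 151 CPM in DIO and 131, 106, 112, 102 and 116 CPM in RYGB, where livers 2 to 5 lay below every DIO liver and liver 1 inside the DIO range. That gave a log2 fold change of -0.37 (SE 0.175, 95% interval -0.74 to 0.01, adjusted p = 0.577 in edgeR's QL test after Benjamini-Hochberg). *Anxa7* had 103, 100, 125, 102 and 102 CPM in DIO and 106, 86.4, 83.9, 84.4 and 73.1 CPM in RYGB, with the same 4 RYGB livers below every DIO liver. This came to a log2 fold change of -0.30 (SE 0.158, adjusted p = 0.619 by that edgeR test after Benjamini-Hochberg). *Anxa11* (12.8 ± 0.987 CPM in RYGB, SD, n = 5) and *Anxa4* (43.6 ± 2.99 CPM) had log2 fold changes of -0.34 and -0.19, and *Anxa13* (0.645 ± 0.172 CPM) one of 0.08.

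**Figure D4:**
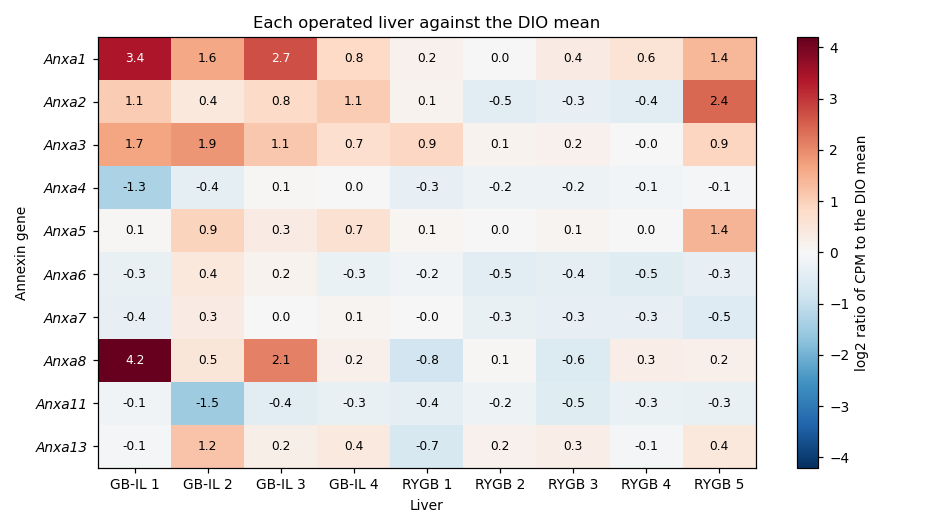
Log2 ratio of the CPM in each GB-IL and RYGB liver (columns) to the DIO mean for each annexin gene (rows), printed in each cell, with red above and blue below 0. *Anxa1* reads 3.4, 1.6, 2.7 and 0.8 in GB-IL livers 1 to 4, and *Anxa2* reads 2.4 in RYGB liver 5 and 0.1 or less in RYGB livers 1 to 4.

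In the direct comparison of GB-IL with RYGB, 0 of the 10 members passed the FDR by edgeR's quasi-likelihood test, as 0.0% of all genes did, and 4 members had an unadjusted p below 0.05, beside 22.1% of all genes. DESeq2 and edgeR's exact test called 3 each and voom with sample quality weights 1. Over all genes, DESeq2 called 693 of 16244 higher and 191 lower. The exact test called 568 of 14252 higher and 113 lower, and voom 111 of 14252 higher and 4 lower. No member was without overlap, beside 2.84% of all genes. The 3 with the smallest p-values were those that rose against DIO. *Anxa1* differed by 1.87 on the log2 scale (SE 0.434, adjusted p = 0.0807), *Anxa8* by 2.71 (SE 0.675, adjusted p = 0.0839) and *Anxa3* by 0.93 (SE 0.262, adjusted p = 0.0998), all by edgeR's QL test after Benjamini-Hochberg. The fourth was *Anxa6*, at 0.40 (SE 0.184, adjusted p = 0.218 by the same edgeR test after Benjamini-Hochberg), which in GB-IL livers 2 and 3 lay above every RYGB liver. Without GB-IL liver 4, *Anxa1*, *Anxa3* and *Anxa8* all passed the FDR, at adjusted p of 0.00429, 0.0119 and 0.00736 by that edgeR test after Benjamini-Hochberg. In that fit 1948 of 14492 genes tested were called higher and 1172 lower. Over all alternatives the adjusted p of these 3 members ran from 0.00339 to 0.278. A rise against DIO that passed in GB-IL and not in RYGB was thus not shown to differ between the operations by this test when all livers were used.

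The partners of the annexins were described with a list of 16 genes, of which *Fpr3* was not found in the table under that symbol and 15 were tested. In GB-IL compared with DIO 5 of the 15 rose past the FDR and 0 fell, with a median log2 fold change of 1.13. Of all genes tested 3.15% rose and 0.112% fell, with a median of 0.04. The 5 were *S100a6*, *S100a11*, *Fpr2*, *Plat* and *Ahnak*, of which *Plat* passed the filter on low counts through operated livers only. *S100a6* (calcyclin, which binds *Anxa11* and *Anxa2* proteins) had 1.37 ± 0.405 CPM in DIO and 10.6 ± 10.4 CPM in GB-IL, with livers 1 to 4 at 25.5, 5.20, 9.84 and 2.03 CPM. Its order over the 4 GB-IL livers, liver 1 highest, then 3, 2 and 4, was that of *Anxa1*. The fitted log2 difference was 2.95 (SE 0.543, adjusted p = 0.0278 in edgeR's QL test after Benjamini-Hochberg). Without GB-IL liver 1, a setting chosen after the data were seen, it was 2.03 (adjusted p = 0.0602 by that edgeR test).

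*Fpr2*, the receptor through which annexin A1 is known to act on leukocytes, had 1.67, 2.76, 1.58, 0.679 and 0.913 CPM in DIO and 5.10, 6.33, 13.7 and 4.35 CPM in GB-IL. Every GB-IL value exceeded the DIO range, with a log2 fold change of 2.27 (SE 0.435, adjusted p = 0.0278 in edgeR's QL test after Benjamini-Hochberg). Its relative *Fpr1*, named after the values were seen, had 4.72 ± 1.60 CPM in DIO and 10.3 ± 6.92 CPM in GB-IL and did not pass (log2 fold change 1.13, adjusted p = 0.116 by the same edgeR test after Benjamini-Hochberg). *Plat*, the tissue plasminogen activator that binds annexin A2 on endothelium, had 0.0509 to 0.453 CPM in DIO and 6.62, 0.791, 0.806 and 0.922 CPM in GB-IL (log2 fold change 3.16, SE 0.729, adjusted p = 0.0340 in edgeR's QL test after Benjamini-Hochberg). Without GB-IL liver 1 the difference of *Plat* was 1.73 on the log2 scale (SE 0.521, adjusted p = 0.136 by that edgeR test). All DIO values of *Plat* lay below the 0.492 CPM of the filter on low counts and all GB-IL values above it. The gene was thus tested through the livers in which it was high, so its call carries little weight. *Ahnak*, a giant scaffold protein that annexin A2 and S100a10 bring to the membrane, had 14.5 ± 1.89 CPM in DIO and 59.8, 27.4, 26.9 and 22.1 CPM in GB-IL (log2 fold change 1.23, SE 0.301), and without GB-IL liver 1 its log2 fold change was 0.81. In RYGB these values were 1.30 ± 0.452 CPM for *Fpr2*, 0.654 ± 0.367 for *Plat* and 22.3 ± 9.28 for *Ahnak* (SD, n = 5).

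The S100 partners of annexins A1 and A2 follow. *S100a11*, which binds annexin A1, had 9.58, 4.48, 7.07, 5.15 and 5.24 CPM in DIO and 41.3, 36.3, 21.4 and 7.41 CPM in GB-IL, with liver 4 inside the DIO range (log2 fold change 2.08, SE 0.479, adjusted p = 0.0340 in edgeR's QL test after Benjamini-Hochberg). *S100a10*, the light chain of the annexin A2 complex and also named after the values were seen, had 122, 37.3, 106, 60.7 and 63.6 CPM in DIO, 30.4, 50.1, 33.0 and 113 CPM in GB-IL and 66.1, 71.1, 83.9, 45.5 and 60.8 CPM in RYGB. Its groups overlapped throughout, with log2 fold changes of -0.46 in GB-IL (adjusted p = 0.470) and -0.25 in RYGB (adjusted p = 0.882, both by edgeR's QL test after Benjamini-Hochberg). In RYGB liver 5, where *Anxa2* was at 106 CPM, *S100a10* was at 60.8 CPM and thus within the range of the other RYGB livers.

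**Figure D5:**
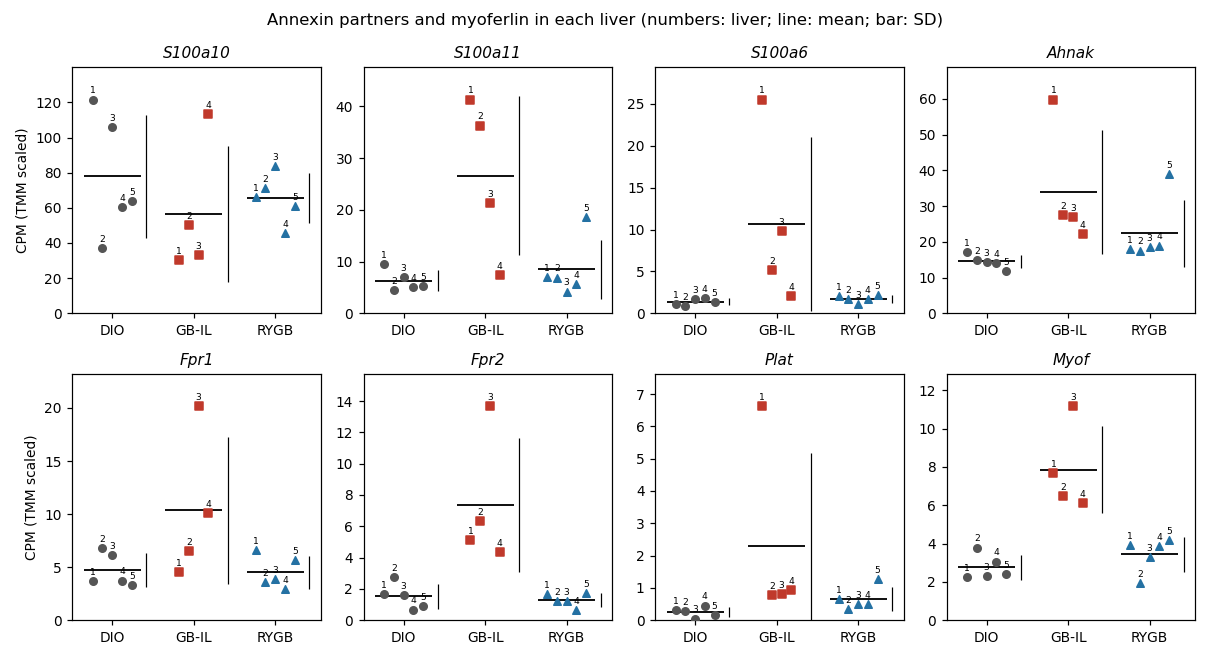
CPM (scaled by TMM) of *S100a10*, *S100a11*, *S100a6*, *Ahnak*, *Fpr1*, *Fpr2*, *Plat* and *Myof* in each liver, 1 panel per gene with its own axis from 0, points numbered by liver, lines for group means and bars for the SD. *Fpr2* and *Myof* of all 4 GB-IL livers lie above every DIO liver, whereas *S100a10* overlaps between the groups.

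In RYGB compared with DIO 0 of the 15 partners passed the FDR and 3 had an unadjusted p below 0.05 (median log2 fold change 0.21), where 8.71% of all genes had such a p and the median was 0.01. Among them was *Pdcd6*, a calcium sensor that binds annexins A7 and A11, with 74.5 ± 12.6 CPM in DIO and 56.9 ± 10.2 CPM in RYGB. The difference came to -0.39 on the log2 scale (adjusted p = 0.542 in edgeR's QL test after Benjamini-Hochberg). Another was *Ahnak*, all 5 RYGB livers of which lay above the DIO livers (log2 fold change 0.62, adjusted p = 0.564 by that edgeR test after Benjamini-Hochberg). For *Ahnak* RYGB liver 5 was at 38.9 CPM and RYGB livers 1 to 4 at 17.6 to 18.9 CPM, against at most 17.2 CPM in DIO. A value without RYGB liver 5 is not given for it. Against RYGB, 0 of the 15 passed in GB-IL and 6 had an unadjusted p below 0.05, as did 22.1% of all genes.

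Genes that expose, bridge or recognise phosphatidylserine, the lipid that annexin A5 binds on dying cells, formed a list of 14, of which *Tyro3* had too few counts to be tested (22 in DIO, 57 in GB-IL and 41 in RYGB, summed over livers). Of the 13 tested, 4 rose in GB-IL compared with DIO and 0 fell, with a median log2 fold change of 0.39, beside 3.15% and 0.112% of all genes and their median of 0.04. *Pros1* (protein S, a bridge to TAM receptors) had 54.4 ± 7.74 CPM in DIO and 131 ± 65.8 CPM in GB-IL (log2 fold change 1.27, adjusted p = 0.0310), and *Ano6*, the scramblase that exposes the lipid, had 12.7 ± 1.87 and 26.4 ± 6.53 CPM (log2 fold change 1.05, adjusted p = 0.0310), both by edgeR's QL test after Benjamini-Hochberg. *Cd300lf*, a receptor for the lipid on myeloid cells, rose by 2.03 and *Mfge8*, a secreted bridge named here because it completes the count, by 2.04 on the log2 scale. Without GB-IL liver 1 these 4 log2 fold changes were 0.90, 0.98, 1.54 and 1.76, and none of them passed the FDR. In RYGB 0 of the 13 passed and 3 had an unadjusted p below 0.05, *Pros1* at 0.71, *Ano6* at 0.50 and *Stab2*, a clearance receptor of sinusoidal endothelium, at 0.68 on the log2 scale, beside 8.71% of all genes. *Stab2* was at 185 CPM in RYGB liver 5 and at 50.2 to 72.2 CPM in RYGB livers 1 to 4, and without liver 5 its log2 fold change was 0.21.

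Among 14 genes of plasma membrane repair, all tested, 2 rose in GB-IL compared with DIO and 0 fell (median log2 fold change 0.41), beside 3.15% and 0.112% of all genes and their median of 0.04. *Myof* (myoferlin, a ferlin of membrane fusion) had 2.25, 3.79, 2.29, 3.06 and 2.40 CPM in DIO and 7.67, 6.49, 11.2 and 6.12 CPM in GB-IL, without overlap (log2 fold change 1.51, SE 0.269, adjusted p = 0.0278 in edgeR's QL test after Benjamini-Hochberg), and the other was *S100a11*, which the partner list also holds. *Chmp4b*, a subunit of the ESCRT-III complex, was at 179 and 149 CPM in GB-IL livers 1 and 2 and at 68.4 and 57.7 CPM in livers 3 and 4, against 44.6 to 70.4 CPM in DIO, and did not pass (log2 fold change 0.93, adjusted p = 0.0901 by that edgeR test after Benjamini-Hochberg). *Ehd2* at 0.69, *Dysf* (dysferlin) at 0.42 and *Capns1* (the calpain small subunit) at 0.04 on the log2 scale did not pass either. In RYGB 0 of the 14 passed and 0 had an unadjusted p below 0.05, beside 8.71% of all genes. Of all 3 lists, 0 genes passed in GB-IL against DIO when a single DIO liver or 1 of GB-IL livers 1 and 2 was left out, where 0 of all genes did. Between GB-IL and RYGB, 0 genes passed in the lists for phosphatidylserine and repair, with 6 of 13 and 5 of 14 at an unadjusted p below 0.05, beside 22.1% of all genes.

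Profiles over the 14 livers were compared by the root mean square difference of log2 (CPM + 0.5), each centred on its mean, among 12687 genes whose mean was 1 CPM or more. The livers share groups and libraries, so this is a description. The genes most like *Anxa5* were *Ehd2* (0.208), *Krt8* (0.252) and *Large* (0.253), against a median of 0.588 over all genes. Those most like *Anxa3* were *Lgmn* (0.203), *Sepn1* (0.207) and *2210013O21Rik* (0.208), with a median of 0.698. Those most like *Anxa2* were *Mcm6* (0.408), *Ccdc80* (0.457) and *St6galnac4* (0.461), with a median of 0.932. The members' own root mean square distance from their means was 0.447 for *Anxa5*, 0.605 for *Anxa3* and 0.853 for *Anxa2*.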

How the data were processed

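The deposited values are whole read counts per gene and liver, which the authors made by aligning reads to mm10 with TopHat 2 and counting with HTSeq. Neither tool versions nor annotation and strand setting were given in the sources used here. Since 2 library kits (mRNA, total RNA) are named and not tied to livers, no kit term could be fitted.

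The tools were edgeR 4.0.16, DESeq2 1.42.0 and limma 3.58.1 under R 4.3.3, besides Python 3.11.15. Genes were kept by filterByExpr, scaled by TMM, and fitted over all 14 livers, with 1 mean per group, by edgeR's quasi-likelihood test (robust off). Each operation was compared with DIO, and GB-IL with RYGB (3 comparisons), with Benjamini-Hochberg adjustment over all 14252 genes tested. Gene positions and merged exon lengths came from GENCODE M21, which 24701 identifiers matched, and promoter windows from RefSeq. The script was tested on simulated counts. The members, the partner, phosphatidylserine and membrane repair lists and the 13 marker lists were chosen with earlier results of these data known. Named were all members, the 3 list genes with the smallest p in each comparison with DIO, and the 3 genes nearest in profile to *Anxa2*, *Anxa3* and *Anxa5*. Exceptions are said where they stand. The result of 1 gene that this rule names is not reported here. List genes past the FDR in GB-IL, other than *Fpr2*, *S100a11* and *Myof*, were also given without GB-IL liver 1, a setting in which 0 genes of all passed. *Stab2* was given without RYGB liver 5. Both settings were chosen for these genes after the data were seen. Other settings tried were DESeq2, the exact test of edgeR, voom with sample quality weights, upper quartile or RLE scaling, robust estimation, a minimum mean of 50 counts or no filter, the replicate number as a block, fitting just the 2 groups compared, and leaving out each liver. The totals of 18223135 to 28656631 counts limit the precision of *Anxa8* and *Anxa13*, which had under 30 counts in most livers. The livers are separate animals by their labels. The lists' order of p-values and the nearest profiles are descriptions.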

Additional observations from a re-analysis of the deposited data

Results flagged for a closer look

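A sample was taken up here when its gap to the nearest of its group was wider than Dixon's 95% limit, which chance alone exceeds in about 1 of 20 groups. Of 30 groups of member values 4 did so, and of 39 groups of marker sums 8. *Anxa2* at 106 CPM and *Anxa5* at 195 CPM were the highest of RYGB in liver 5, and in the same liver the neutrophil sum of 133 CPM, the sinusoidal endothelium sum of 643 CPM and the stellate cell and fibroblast sum of 541 CPM were the highest of their group. *Anxa11* was lowest of DIO in liver 1 at 11.7 CPM, and *Anxa7* was highest of DIO in liver 3 at 125 CPM. In GB-IL liver 1 the pancreatic acinar sum of 1395 CPM, the squamous epithelium sum of 506 CPM and the stellate cell and fibroblast sum of 874 CPM stood highest. The sinusoidal endothelium sum was lowest of GB-IL in liver 2 at 191 CPM. The intestinal epithelium sum, nearly all of it *Fabp2* and *Lgals4*, was highest of GB-IL in liver 4 at 233 CPM. What set these livers apart was not tested.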

How the results depend on the processing

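In GB-IL against DIO the 3 members called became 0 in the fit of the 2 compared groups only and 0 with the replicate block, and between 0 and 3 with a liver left out. Under the replicate block the adjusted p was 0.0679 for *Anxa1* and *Anxa3* and 0.185 for *Anxa8* (edgeR's QL test after Benjamini-Hochberg), and 1 gene of all was called. Nothing in the labels says that a replicate number marks livers that belong together. The deviations of same-numbered livers correlated between -0.41 and 0.40 (median -0.02, 13 pairs), and those of other pairs between -0.43 and 0.52 (52 pairs). With so few pairs these values cannot decide whether same-numbered livers shared a day or cohort. In RYGB against DIO the count was 1 with voom, which called 867 genes of all higher and 823 lower, and 0 with any liver left out. In GB-IL against RYGB DESeq2 gave 3 (693 genes of all higher, 191 lower), the exact test of edgeR 3 (568 and 113) and voom 1 (111 and 4). With a liver left out it was 0 to 3, the 3 being without GB-IL liver 4 (1948 genes of all higher, 1172 lower). The cause of these changes was not tested.

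Direction turned for the following members. With voom, *Anxa8* and *Anxa13* in RYGB against DIO were 0.014 and -0.10, and *Anxa4* in GB-IL against RYGB was 0.060 on the log2 scale. With a liver left out the log2 fold change in RYGB against DIO ran from -0.25 (without RYGB liver 5) to 1.04 for *Anxa2*, from -0.25 to 0.091 for *Anxa8* and from -0.17 to 0.31 for *Anxa13*. In GB-IL against DIO it ran from -0.14 to 0.13 for *Anxa6* and from -0.076 to 0.15 for *Anxa7*. In GB-IL against RYGB it ran from -0.12 to 1.11 for *Anxa2*, from -0.28 to 0.084 for *Anxa4*, from -0.10 to 0.47 for *Anxa5* and from -0.33 to 0.026 for *Anxa11*. Of 420 values with a liver left out, 367 kept direction and side of the threshold, and of 294 under the other alternatives 276 did. *Anxa8* and *Anxa13* have no value with the mean of at least 50 counts, which leaves them out.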

Other observations

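As a share of the summed CPM per kb of the 10 annexins, *Anxa5* and *Anxa6* together led in every group, but in a different order. *Anxa6* held 38.1% ± 3.39 in DIO (SD, n = 5), 31.5% ± 3.98 in GB-IL (SD, n = 4) and 30.3% ± 6.51 in RYGB (SD, n = 5), and *Anxa5* held 30.8% ± 2.52, 36.2% ± 5.33 and 39.6% ± 7.32. In RYGB liver 5 *Anxa5* held 52.4% and *Anxa6* 18.9%. *Anxa1* held 0.567% to 1.14% in DIO, 1.23% to 8.33% in GB-IL and 0.951% to 1.44% in RYGB. The sum itself was 131 ± 14.8 CPM per kb in DIO, 161 ± 24.3 in GB-IL and 135 ± 42.4 in RYGB, where liver 5 was highest at 209.6 CPM per kb. These shares sum to a whole and so are not independent of each other.

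Among the members themselves the closest profiles over the 14 livers were those of *Anxa6* and *Anxa7* (root mean square difference 0.157 on the log2 scale), followed by *Anxa6* and *Anxa13* (0.363). As above, 0.5 was added to each CPM. *Anxa13* lay at 0.148 to 1.41 CPM, so this addition shrinks its differences between livers. Genes that each vary little also come out close by this measure. These are values without a test.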
